A study of Mus musculus with 6 samples.

Results

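The genes described here are the 10 TNF and NF-kappaB feedback genes Tnf, Tnfaip3, Tnfaip2, Nfkbia, Nfkbiz, Nfkb1, Nfkb2, Relb, Tnfrsf1a and Tnfrsf1b. The 10 were chosen by symbol, with earlier results of these data known, and all were found among the 24014 genes of each count table. They were compared between epidermal cells of healing suction blisters (3 libraries) and epidermal cells of control skin (3 libraries), all from the back of wild type mice at postnatal day 2, with strain, sex and time since blistering not stated in the labels. A suction blister lifts the epidermis off the dermis by negative pressure, here 523.4 ± 1.3 mmHg through a syringe 4 mm in diameter, which left blisters typically 3 mm across. The epidermis of both groups was detached with 0.25% trypsin and passed through a 70 µm filter, with no sorting named in the labels, so blood-borne cells, hair follicles and remnants of dermis could be in each library. How many animals stand behind each library, and whether they differ between libraries, is not stated in the labels, so p-values cover only library-to-library spread, which may be technical.

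TNF binds 2 receptors, TNFR1 (Tnfrsf1a) and TNFR2 (Tnfrsf1b), and receptor complexes then activate the IkappaB kinases. The kinases mark IkappaB alpha (Nfkbia) for destruction, which frees NF-kappaB dimers to enter the nucleus. Among the genes that these dimers switch on are their own brakes, IkappaB alpha and the ubiquitin-editing enzyme A20 (Tnfaip3), so the pathway is known for negative feedback. In epidermis, keratinocytes both make TNF and respond to it, and resident and recruited immune cells are further sources.

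The promoters are shown first because kappaB sites, the DNA sequences that NF-kappaB dimers bind, are the textbook link between the pathway and its feedback genes. RefSeq's promoter table (GRCm38.p6) held 7 of the 10 genes, and the bases given are the 250 before the transcription start, on the strand of the gene. It had no entry for Nfkbiz, Nfkb1 and Relb. Capitals mark matches to the kappaB consensus, searched on both strands, with overlapping matches joined. The windows shown are those of 3 known NF-kappaB targets that hold a match (Nfkbia, Tnfaip3 and Nfkb2) and of the 2 genes with the largest fitted fold changes below (Tnfaip2 and Tnfrsf1b). They lie at chr12:55492648-55492897 on the minus strand (Nfkbia), chr10:19015411-19015660 on the minus strand (Tnfaip3, the start farther upstream of 2), chr19:46304487-46304736 on the plus strand (Nfkb2, the start farthest upstream of 3), chr12:111442411-111442660 on the plus strand (Tnfaip2) and chr4:145246871-145247120 on the minus strand (Tnfrsf1b).
Nfkbia: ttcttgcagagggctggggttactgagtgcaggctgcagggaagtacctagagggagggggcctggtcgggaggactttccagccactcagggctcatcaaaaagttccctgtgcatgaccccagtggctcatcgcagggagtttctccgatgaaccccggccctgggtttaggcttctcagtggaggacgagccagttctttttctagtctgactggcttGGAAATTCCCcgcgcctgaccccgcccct
Tnfaip3: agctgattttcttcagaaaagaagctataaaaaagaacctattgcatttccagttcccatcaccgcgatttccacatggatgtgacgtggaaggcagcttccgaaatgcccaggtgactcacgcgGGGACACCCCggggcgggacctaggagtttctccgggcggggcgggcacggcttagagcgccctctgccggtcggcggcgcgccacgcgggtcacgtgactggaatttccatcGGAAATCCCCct
Nfkb2: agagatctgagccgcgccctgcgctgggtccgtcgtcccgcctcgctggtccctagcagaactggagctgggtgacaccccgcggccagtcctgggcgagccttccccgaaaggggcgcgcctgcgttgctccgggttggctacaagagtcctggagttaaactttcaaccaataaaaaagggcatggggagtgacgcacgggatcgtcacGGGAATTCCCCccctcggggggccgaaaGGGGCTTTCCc
Tnfaip2: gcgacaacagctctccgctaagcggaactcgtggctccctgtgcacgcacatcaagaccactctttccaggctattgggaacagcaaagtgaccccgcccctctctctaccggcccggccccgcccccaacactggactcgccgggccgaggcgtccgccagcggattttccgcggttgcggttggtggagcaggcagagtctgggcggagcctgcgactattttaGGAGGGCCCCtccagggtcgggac
Tnfrsf1b: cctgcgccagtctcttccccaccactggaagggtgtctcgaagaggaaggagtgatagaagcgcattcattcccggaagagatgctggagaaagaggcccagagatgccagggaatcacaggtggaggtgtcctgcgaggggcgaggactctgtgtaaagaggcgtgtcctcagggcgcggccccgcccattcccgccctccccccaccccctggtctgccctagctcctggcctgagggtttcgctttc
A match was present in 4 of the 7 genes, Nfkbia, Tnfaip3, Nfkb2 and Tnfaip2, against 8.23% of 27025 genes in the promoter table and 10.87% of 10436 genes that were tested for expression. Among tested genes called higher in blister, 11.65% of 1030 held a match. Of the 4 genes only Tnfaip2 was called higher. The 7 are genes of this pathway by choice, so their share of matches is not an independent result. In Nfkbia the match GGAAATTCCC began 29 bases before the start and in Tnfaip2 the match GGAGGGCCCC began 24 bases before it. Nfkb2 held overlapping matches from 39 bases before its first start and another, GGGGCTTTCC, at 11 bases. The windows of Tnf, Tnfrsf1a and Tnfrsf1b held no match to this consensus, which says only that these letters are not in 250 bases. A match is a description of sequence and not a measure of binding.

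Library totals ran from 7600567 to 12972196 counts in blister and from 11743139 to 15912863 counts in control libraries. Levels are given in CPM, read counts scaled to a common library total with TMM factors, which correct for libraries in which a few genes take many reads. These factors were 0.841 to 0.957 in blister and 1.06 to 1.11 in control libraries, so the scaling itself differs between groups, and with library totals alone the median log2 fold change of all tested genes moved to -0.25. The 6 basal keratinocyte markers summed to between 40326 and 58117 CPM in blister and between 22335 and 22792 CPM in control libraries, so the labelled cell type was present in both groups. The 12 neutrophil markers summed to 618, 917 and 302.0 CPM in blister 1, 2 and 3, against 37.1, 30.1 and 33.4 CPM in control 1, 2 and 3. All 10 tested genes of that list were higher in blister, among them S100a9, its most abundant gene, at 249.9 ± 113 CPM in blister and 3.08 ± 2.02 CPM in control libraries (SD, n = 3 each; 2.01 CPM in controls without control 1), while 2 markers, Mmp8 and Ngp, were too low to test. Hair follicle markers summed to between 152 and 687 CPM in blister and between 1924 and 3495 CPM in controls, and dermal fibroblast markers to between 401 and 1408 CPM in blister and, overlapping, between 1105 and 6834 CPM in controls. In such bulk samples fewer cells of a type and less RNA per cell cannot be told apart. Which cells carried the RNA of a marker, S100a9 among them, was not tested.

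The healing blisters carried more RNA of the TNF receptor 2 gene, of Tnfaip2 and of the nuclear IkappaB gene Nfkbiz than control epidermis. Nfkb1 was slightly higher, a call lost in 10 of 14 alternative fits. Of the 10 genes 4 rose and 0 fell at an adjusted p under 0.05 (quasi-likelihood test of edgeR, Benjamini-Hochberg adjustment over 14028 genes), where 9.74% of all tested genes were called higher and 11.6% lower. Because the 10 were chosen with earlier results of these data known, the shares over all genes are background and not a test of the set. The best known feedback brakes, Nfkbia and Tnfaip3, and the cytokine gene Tnf itself did not pass. At an unadjusted p under 0.05, 7 of the 10 were higher and 0 lower, and 39.0% of all genes passed in either direction. The median log2 fold change was 0.77 over the 10 genes and 0.00 over all tested genes. All 3 blister libraries lay above all 3 controls in 6 of the 10 genes, as in 21.4% of all genes, and below them in 0 of the 10, as in 23.2% of all genes. With library totals alone, blister lay above control in this way for 3 of the 10 and for 8.83% of all genes. DESeq2 called 6 of the 10 higher and 0 lower, adding Nfkbia and Tnfrsf1a, where it called 14.0% of all 13997 genes with an adjusted p higher. Without control 1 edgeR called 2 of the 10, Tnfaip2 and Nfkbiz, and 2.15% of all genes higher.

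**Figure D1:**
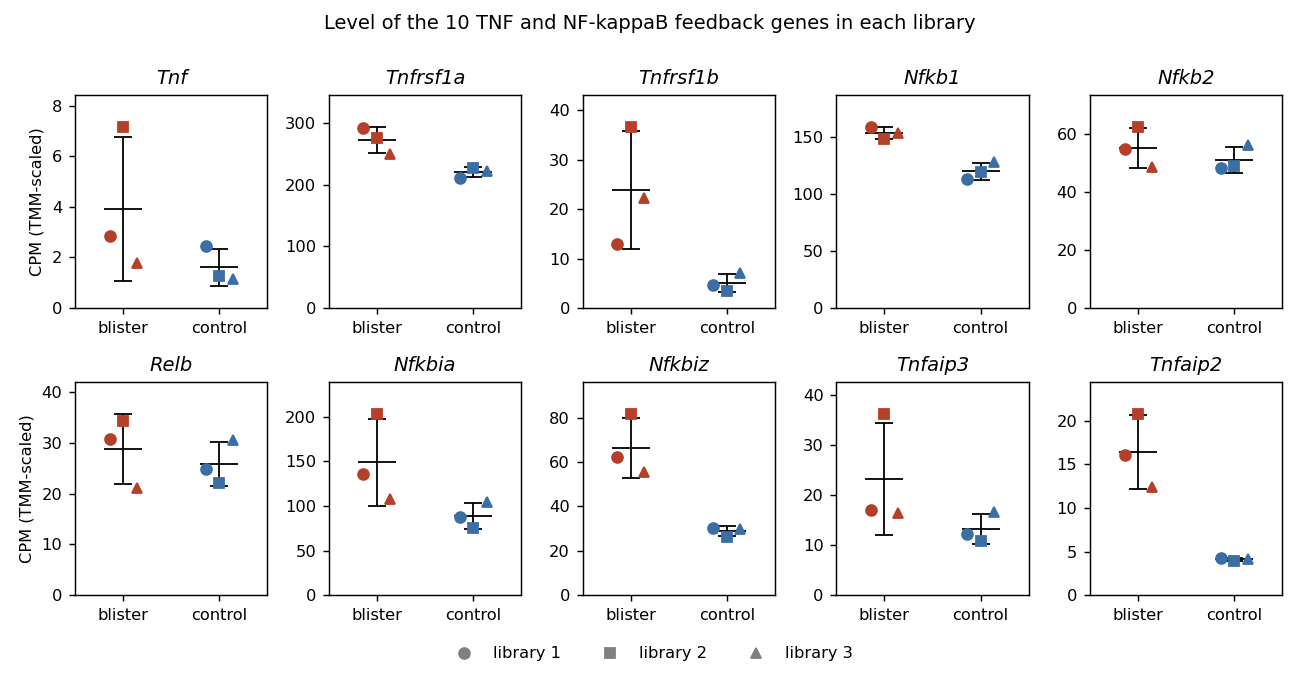
Each panel shows 1 gene, with TMM-scaled CPM on a vertical axis from 0 and the 3 blister libraries left of the 3 controls; symbols stand for the libraries and bars for mean ± SD (n = 3). Tnfrsf1b, Nfkbiz and Tnfaip2 have every blister library well above every control, while Tnf and Tnfaip3 have 1 high library, blister 2.

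The ligand gene was rare. Tnf, which encodes the cytokine, was at 2.84, 7.15 and 1.78 CPM in blister 1, 2 and 3, with 2.45, 1.26 and 1.14 CPM in control 1, 2 and 3, from 31, 52 and 21 reads against 32, 18 and 20 reads. Blister 2 stood apart, blister 1 was slightly above the highest control and blister 3 lay within the control range. The mean was 3.92 ± 2.84 CPM in blister and 1.62 ± 0.727 CPM in control libraries (SD, n = 3 each). Its log2 fold change was 1.25 ± 0.57 (SE), with a 95% interval from -0.07 to 2.58 and an edgeR adjusted p of 0.145. Without blister 2 the blister mean was 2.31 CPM and the log2 fold change 0.53 (edgeR adjusted p = 0.435). With library totals alone, Tnf in blister 1 was at 2.39 CPM, within the control range and below control 1 at 2.72 CPM.

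The 2 receptor genes were far apart in level. Tnfrsf1a encodes TNFR1, the broadly expressed receptor with a death domain, and was at 291, 275 and 249 CPM in blister libraries against 211, 227 and 223 CPM in controls. The groups did not overlap on this scale, yet the difference was small, with a log2 fold change of 0.30 ± 0.12 (SE), an interval from 0.03 to 0.57 and an edgeR adjusted p of 0.0952. With library totals alone its log2 fold change was 0.05 (edgeR adjusted p = 0.775), and DESeq2 gave 0.31 (adjusted p = 0.0338).

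Tnfrsf1b encodes TNFR2, which lacks a death domain and is found mainly on leukocytes and endothelium. It rose to 12.9, 36.6 and 22.3 CPM in blister 1, 2 and 3, against 4.60, 3.43 and 6.99 CPM in control 1, 2 and 3. Every blister library was above every control, and blister 1, the lowest, was closest to control 3. Means were 23.9 ± 11.9 CPM in blister and 5.0 ± 1.82 CPM in control libraries (SD, n = 3 each), and the fitted log2 fold change was 2.24 ± 0.42 (SE; adjusted p = 0.0147 in edgeR). Without control 1 the change was 2.18 with an edgeR adjusted p of 0.0569, and it passed in the other 13 alternatives.

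Because both receptors were counted in the same libraries, their ratio is free of the scaling. Tnfrsf1b reads came to 4.43%, 13.3% and 8.95% of Tnfrsf1a reads in blister 1, 2 and 3 and to 2.18%, 1.51% and 3.14% in control 1, 2 and 3, so TNFR1 RNA gave most reads in both groups and the groups did not overlap. Myeloid markers did not share one direction. Of the macrophage list, 2 of 10 tested genes rose and 0 fell, with a median log2 fold change of -0.21. They were Itgam, an integrin chain of neutrophils and macrophages, and Fcgr1, an Fc receptor, both named after their values were seen. Among blister libraries, blister 2 was highest for Tnfrsf1b, for the summed neutrophil markers and for the summed macrophage markers. The lowest was blister 1 for Tnfrsf1b and blister 3 for both sums. The macrophage sums overlapped between groups, at 178, 327 and 172 CPM in blister 1, 2 and 3 against 225, 153 and 247 CPM in control 1, 2 and 3. Csf1r, the most abundant tested gene of that list, averaged 37.5 CPM in blister and 44.4 CPM in control libraries. Its log2 fold change was -0.25 (edgeR adjusted p = 0.375). The endothelial markers were low in blister, summing to between 4.31 and 8.80 CPM there and to between 12.1 and 82.9 CPM in controls. The part of these cells in the Tnfrsf1b result was not tested.

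**Figure D2:**
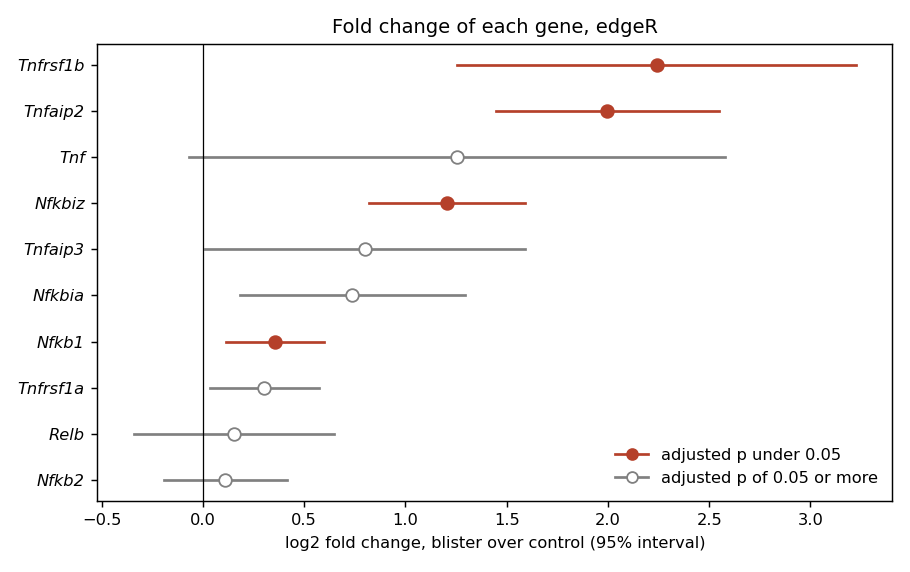
Each row shows 1 gene with its log2 fold change (blister over control, horizontal axis) and 95% interval from edgeR; filled red circles mark an adjusted p under 0.05. Tnfrsf1b at 2.24 and Tnfaip2 at 2.0 lead, and the lowest rows are Relb at 0.15 and Nfkb2 at 0.11.

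The genes of the NF-kappaB subunits had small fitted changes. Nfkb1, which encodes p105 and its product p50, was at 158, 148 and 154 CPM in the 3 blister libraries, and the controls had 113, 119 and 128 CPM. With TMM scaling all blister libraries were above all controls by a small margin. It rose with a log2 fold change of 0.36 ± 0.10 (SE) and an edgeR adjusted p of 0.0468, close to the threshold. The call was lost in 10 of 14 alternatives. Without blister 1 and blister 2 in turn the adjusted p was 0.111 and 0.0531, without control 1, 2 and 3 in turn 0.186, 0.125 and 0.0891, and with library totals alone the log2 fold change was 0.10 (edgeR adjusted p = 0.524). Scaled by library totals, Nfkb1 in blister 1, at 133 CPM, lay below control 3, at 141 CPM.

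Nfkb2, which encodes p100 and p52 of the alternative branch, was at 54.6, 62.3 and 48.6 CPM in the 3 blister libraries, and the controls had 48.1, 48.8 and 56.0 CPM. Relb, whose product pairs with p52, was at 30.8, 34.4 and 21.1 CPM in the 3 blister libraries, and the controls had 24.9, 22.0 and 30.5 CPM. The groups overlapped for both genes. Their log2 fold changes were 0.11 ± 0.13 and 0.15 ± 0.21 (SE), with 95% intervals from -0.19 to 0.42 and from -0.34 to 0.65 and edgeR adjusted p of 0.563 and 0.630. With library totals alone the signs turned, to -0.14 for Nfkb2 and -0.11 for Relb. Nfkb2 reads came to 36.0% ± 5.35 of Nfkb1 reads in blister and to 42.5% ± 1.42 in control libraries (SD, n = 3 each), a ratio free of scaling whose 2 ranges overlapped.

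Of the inhibitors, Nfkbiz passed the test and Nfkbia did not. Nfkbiz encodes IkappaB zeta, a nuclear member of the IkappaB family that helps switch on part of the NF-kappaB targets and is known in keratinocytes for its part in interleukin 17 responses. It rose to 62.2, 81.7 and 55.5 CPM in blister libraries, against 30.3, 26.2 and 29.8 CPM in controls. The lowest blister library was well above the highest control, and controls differed little among themselves. Means were 66.5 ± 13.6 CPM in blister and 28.8 ± 2.29 CPM in control libraries (SD, n = 3 each), with a log2 fold change of 1.21 ± 0.16 (SE) and an edgeR adjusted p of 0.00740. It passed in all 14 alternatives, with log2 fold changes from 0.95 to 1.33 and adjusted p of up to 0.0340.

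Nfkbia, the classical feedback inhibitor with a kappaB match in its promoter window, was at 136, 203 and 108 CPM in the 3 blister libraries, and the controls had 87.6, 75.5 and 104 CPM. Blister 3 and control 3 nearly met, at 108 and 104 CPM. The means of 149 ± 48.8 CPM in blister and 89.2 ± 14.6 CPM in control libraries (SD, n = 3 each) gave a log2 fold change of 0.74 ± 0.24 (SE), an interval from 0.18 to 1.29 and an edgeR adjusted p of 0.0636. The gene passed without blister 3 (edgeR adjusted p = 0.0218) and in DESeq2 (adjusted p = 0.0158). Nfkbiz reads came to 45.9%, 40.2% and 51.3% of Nfkbia reads in blister 1, 2 and 3 and to 34.6%, 34.7% and 28.6% in control 1, 2 and 3. This ratio is free of scaling, and it was higher in every blister library than in every control.

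Tnfaip3, which encodes A20, was at 17.0, 36.2 and 16.5 CPM in the 3 blister libraries, and the controls had 12.2, 10.8 and 16.6 CPM. As for Tnf, blister 2 stood apart, blister 1 was slightly above the highest control and blister 3 lay within the control range. The log2 fold change was 0.80 ± 0.34 (SE), with an interval from 0.01 to 1.59 and an edgeR adjusted p of 0.124, and it was 0.35 without blister 2 (edgeR adjusted p = 0.282). Tnfaip3 reads came to 15.2% ± 2.66 of Nfkbia reads in blister and to 14.7% ± 1.08 in control libraries (SD, n = 3 each), with overlapping ranges. With library totals alone, Tnfaip3 in blister 1 was at 14.3 CPM, within the control range and below control 3 at 18.4 CPM.

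Tnfaip2 encodes a TNF-inducible cytoplasmic protein linked to membrane protrusions and is not itself a brake on the pathway. It rose to 16.1, 20.8 and 12.4 CPM in blister libraries, against 4.21, 3.92 and 4.15 CPM in controls. The controls lay within a narrow range and the lowest blister library was far above them. Means were 16.4 ± 4.20 CPM in blister and 4.09 ± 0.157 CPM in control libraries (SD, n = 3 each), and the fitted log2 fold change was 2.0 ± 0.24 (SE; adjusted p = 0.00658 in edgeR), the smallest adjusted p of the 10 genes. It passed in all 14 alternatives, with log2 fold changes from 1.75 to 2.17 and adjusted p of up to 0.0302. Its promoter window held a kappaB match, and that of Tnfrsf1b held none.

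**Figure D3:**
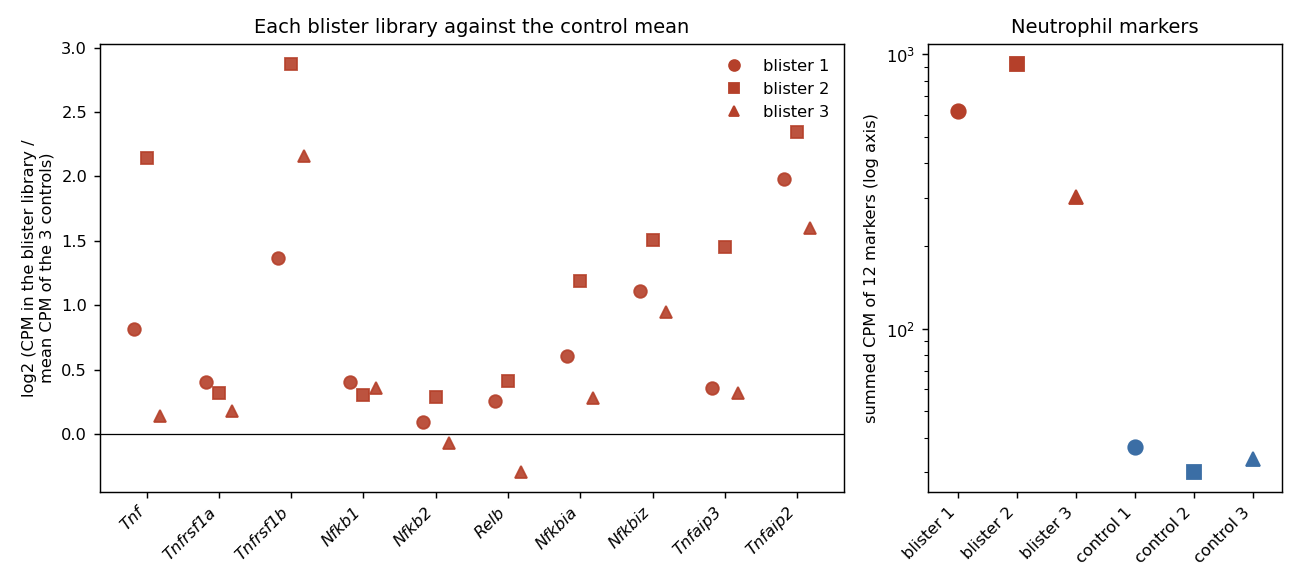
The left panel gives the log2 ratio of each blister library to the mean CPM of the 3 controls for each gene; the right panel gives the summed CPM of 12 neutrophil markers on a log axis, with blister libraries left of controls. Blister 2 is highest for 8 of the 10 genes and blister 3 is lowest for 8 of the 10. The shares over all genes were not counted. Blister 2 and 3 are also highest and lowest among blister libraries for the neutrophil sum.

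The blister libraries differed among themselves in a shared order. Blister 2 had the highest CPM in 8 of the 10 genes, the exceptions being Tnfrsf1a and Nfkb1. Blister 3 had the lowest in 8 of the 10, the exceptions being Tnfrsf1b and Nfkb1. The share of all tested genes with the same order was not counted, so the order is not shown to be particular to these 10. The summed neutrophil markers were also highest in blister 2 (917 CPM) and lowest in blister 3 (302.0 CPM). That sum is unweighted, and S100a9 alone averaged 249.9 CPM in blister libraries. Blister 2 was also the library with the fewest reads and, among blister libraries, the one with the highest dermal fibroblast sum, at 1408 CPM against 401 and 494 CPM in blister 1 and 3. Hair follicle markers summed to 174, 152 and 687 CPM in blister 1, 2 and 3. The part of these cell types in the order was not tested.

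Per kilobase of exon, the scale on which genes can be set against each other, Tnfrsf1a had the highest level, at 126 ± 9.91 CPM per kb in blister and 102 ± 3.72 CPM per kb in control libraries (SD, n = 3 each). Nfkbia followed at 94.4 ± 30.9 CPM per kb in blister and 56.5 ± 9.22 CPM per kb in controls, and its blister range overlapped that of Tnfrsf1a. Nfkb1 came next in both groups, with 37.2 CPM per kb in blister and 29.1 CPM per kb in controls. Nfkbiz was at 16.1 CPM per kb in blister and 6.95 CPM per kb in controls. In blister it overlapped Nfkb2 and Relb, at 13.1 and 13.0 CPM per kb, while in controls it lay below both, at 12.1 and 11.7 CPM per kb. Tnfrsf1b, Tnfaip3, Tnfaip2 and Tnf closed the order in blister, at 6.27, 5.05, 4.31 and 2.39 CPM per kb with overlapping ranges. In controls Tnfaip3 was at 2.87 CPM per kb, above Tnfrsf1b, Tnfaip2 and Tnf at 1.31, 1.07 and 0.986 CPM per kb, whose ranges overlapped. Exon lengths are those of GENCODE M21 on GRCm38, not the annotation behind the counts.

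The rest of the pathway was followed in 6 lists of 111 genes, of which 82 were tested. In these lists 16 genes rose and 5 fell, beside 9.74% and 11.6% of all tested genes. The lists too were chosen with earlier results of these data known, so their counts are a description and not a test. The total of 21 calls was 9 without control 1, 11 without blister 1, 11 without control 2, 13 without blister 2, 14 without control 3 and 30 without blister 3, where 26 genes were higher. Calls over all genes ran from 785 without control 1 to 4059 without blister 3 in the same fits.

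**Figure D4:**
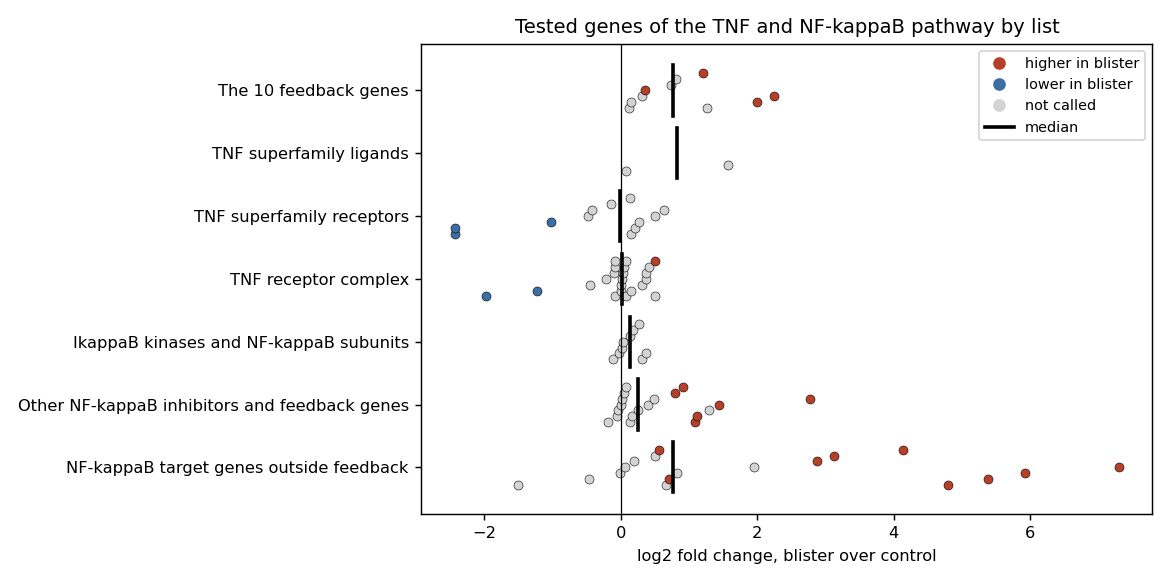
Each point is 1 tested gene, placed by its log2 fold change (blister over control) in its list, red where higher, blue where lower and grey where not called; black bars are medians. The kinases and subunits stay within a narrow band around a median of 0.13, while the target list reaches 7.30 for Cxcl2.

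Upstream, the other TNF superfamily ligands were nearly absent: of 16 genes 2 passed the filter, and 0 were called by edgeR, by DESeq2 or at an unadjusted p under 0.05. Ltb, which encodes lymphotoxin beta, was at 0.733, 4.81 and 0.933 CPM in blister 1, 2 and 3, with 0.996, 0.629 and 0.455 CPM in the controls (fitted log2 change 1.57 ± 0.77 (SE), adjusted p = 0.171 in edgeR), so blister 2 stood apart again, and without it the mean in blister was 0.833 CPM. Of 12 tested receptor genes of the superfamily 0 rose and 3 fell in edgeR, as in DESeq2 and at an unadjusted p under 0.05, with a median log2 fold change of -0.01. Ngfr, the p75 neurotrophin receptor gene, fell to 2.22 ± 0.310 CPM in blister, against 12.1 ± 2.68 CPM in control libraries (SD, n = 3 each; edgeR adjusted p = 0.00468). Cd27, a T cell costimulatory receptor gene, fell to 0.192 CPM against 1.12 CPM in controls, a call lost without blister 1, blister 2 or control 1 in turn (edgeR adjusted p of up to 0.0803). Tnfrsf11a, which encodes RANK, fell to 1.97 CPM against 4.07 CPM, and lost its call in 9 of 13 alternatives, among them the fits without any 1 of the 6 libraries (edgeR adjusted p reaching 0.155 when control 1 was left out). T cell markers, of which 0 of 6 tested were called by edgeR or DESeq2 and 1 passed at an unadjusted p under 0.05, summed to between 42.7 and 60.9 CPM in blister and between 65.0 and 75.8 CPM in controls, and their part in the Cd27 value was not tested. A large part of these sums was Thy1, which averaged 33.5 CPM in blister and 43.1 CPM in controls.

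In the receptor complex, 1 of 22 tested genes rose and 2 fell in edgeR (4 and 2 at an unadjusted p under 0.05, 3 and 2 in DESeq2), with a median log2 fold change of 0.02. Adam17, the protease that releases TNF from the cell surface, rose to 103 ± 9.47 CPM in blister, against 73.4 ± 3.00 CPM in control libraries (SD, n = 3 each; log2 fold change 0.49 ± 0.11 (SE), adjusted p = 0.0232 in edgeR). The call was lost in 6 of 14 alternatives, among them the fits without blister 1 and without control 1, 2 or 3 (edgeR adjusted p of up to 0.0986), and with library totals alone (0.144). Timp3, a protein inhibitor of that protease, fell to 99.1 ± 31.8 CPM in blister, against 231 ± 20.9 CPM in controls (fitted log2 change -1.22 ± 0.22 (SE), adjusted p = 0.0139 in edgeR). Timp3 was at 71.0, 92.5 and 134 CPM in the 3 blister libraries, against 216, 222 and 255 CPM in controls, with no overlap. The summed dermal fibroblast markers did overlap, with blister 2 (1408 CPM) above control 1 and 2 (1105 and 1268 CPM) and control 3 far above the rest (6834 CPM); 3 of the 8 were called lower, and their part in the Timp3 value was not tested. Traf1, an adaptor that is itself a known NF-kappaB target, fell to 1.19 ± 0.441 CPM in blister, against 4.73 ± 0.953 CPM in controls (fitted log2 change -1.98 ± 0.36 (SE), adjusted p = 0.0131 in edgeR), a direction opposite to that of Tnfaip2.

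Of the 9 kinase and subunit genes 0 were called by edgeR, 1 passed at an unadjusted p under 0.05 and 0 were called by DESeq2, and the median log2 fold change was 0.13. Rela, which encodes p65, had the smallest p, at 112 ± 7.75 CPM in blister and 92.6 ± 6.25 CPM in control libraries (SD, n = 3 each; log2 fold change 0.27 ± 0.11 (SE), edgeR adjusted p = 0.115).

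Of the other inhibitors and feedback genes, 6 of 19 tested rose and 0 fell in edgeR (9 and 0 at an unadjusted p under 0.05, 8 and 0 in DESeq2), with a median log2 fold change of 0.25. Bcl3, which encodes a nuclear IkappaB protein like IkappaB zeta, rose to 74.4, 41.7 and 18.1 CPM in blister 1, 2 and 3, against 5.67, 7.06 and 6.87 CPM in control 1, 2 and 3, and the fitted log2 fold change was 2.77 ± 0.47 (SE; adjusted p = 0.0118 in edgeR). Every blister library was above every control, and here blister 1 was the highest; without it the blister mean was 29.9 CPM in place of 44.7 CPM. Zfp36, whose product tristetraprolin speeds the decay of Tnf mRNA, rose to 148 ± 40.1 CPM in blister, against 78.5 ± 4.51 CPM in control libraries (SD, n = 3 each; edgeR adjusted p = 0.0227). Ier3, an early response gene, rose to 39.5 ± 12.8 CPM in blister, against 18.5 ± 2.72 CPM in controls (SD, n = 3 each; edgeR adjusted p = 0.0240). The call of Zfp36 was lost without blister 1, blister 2 or any 1 of the controls (edgeR adjusted p of up to 0.0768) and with Xist as covariate (0.0531). That of Ier3 was lost without blister 1, control 1 or control 2 (up to 0.0792), with library totals alone (0.0529), with the replicate number as a block (0.0544) and with Xist as covariate (0.0658). The other risers, named after their values were seen, were Nfkbie, the gene of IkappaB epsilon, Zc3h12a, which encodes an RNase that degrades inflammatory mRNAs, and Socs3, an inhibitor of cytokine receptor signalling.

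Of the target genes outside the feedback loop, 9 of 18 tested rose and 0 fell in edgeR (12 and 1 at an unadjusted p under 0.05, 11 and 1 in DESeq2), with a median log2 fold change of 0.77. Cxcl2, a neutrophil attractant, was at 98.7, 166 and 30.2 CPM in the 3 blister libraries, and the controls had 1.38, 0.280 and 0.284 CPM (fitted log2 change 7.30 ± 0.85 (SE), adjusted p = 0.00641 in edgeR). Il1b, the interleukin 1 beta gene, was at 113, 63.0 and 23.1 CPM in the 3 blister libraries, and the controls had 2.99, 1.12 and 0.795 CPM (fitted log2 change 5.38 ± 0.72 (SE), adjusted p = 0.00740 in edgeR). Lcn2, the gene of an iron-sequestering defence protein of epithelia and neutrophils, was at 7.88, 42.2 and 19.8 CPM in the 3 blister libraries, and the controls had 0.766, 0.420 and 1.25 CPM (fitted log2 change 4.79 ± 0.70 (SE), adjusted p = 0.00814 in edgeR). All 3 rose, with no overlap between groups, and all 3 passed in all 14 alternatives. Blister means were 64.5 CPM for Cxcl2 without blister 2, 43.0 CPM for Il1b without blister 1 and 13.9 CPM for Lcn2 without blister 2, and control means without control 1 were 0.282 CPM for Cxcl2 and 0.957 CPM for Il1b. Neutrophils also carry RNA of such genes, and the part of their markers, higher in the blister libraries, was not tested.

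Likeness of pattern was described with Pearson's r of log2 CPM over the 6 libraries, among genes averaging 5 CPM or more (11237 for Tnf and 11236 for Tnfaip2), with no test. For Tnf the closest genes were Snrpb2 (r = 0.996), Coro1a (r = 0.991) and Cox16 (r = 0.989), all with their highest value in blister 2. Snrpb2, the closest, was at 45.2, 57.1 and 39.4 CPM in the 3 blister libraries, and the controls had 41.7, 36.6 and 34.5 CPM. Coro1a, the gene of an actin regulator of leukocytes, was at 30.4, 59.0 and 20.6 CPM in the 3 blister libraries, and the controls had 22.5, 15.2 and 14.9 CPM. For Tnfaip2 they were Ippk, 2010005H15Rik and Tgfbi, each with r = 0.998. Tgfbi, a matrix protein gene, was at 623, 664 and 515 CPM in the 3 blister libraries, and the controls had 317, 302 and 300.2 CPM. These genes share the 6 libraries and the split between groups. They were picked for the highest r among all genes searched, so a high r was built into the choice.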

How the data were processed

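RNA-seq libraries of 3 blister and 3 control samples were analysed. The deposited files hold raw read counts for 24014 gene symbols; the submitters' processing notes name HISAT2 2.0.0, featureCounts and the builds NCBIM37 and mm9. They give neither annotation nor strand setting, and nor do the labels. Genes were filtered by group (edgeR 4.0.16 filterByExpr, minimum count 10, minimum total 15), scaled by TMM and tested with the quasi-likelihood test, with Benjamini-Hochberg adjustment over 14028 genes. SE is the log2 fold change divided by the root of the F statistic. Library totals limit precision for low genes. No library was a copy of another. All 10 genes are named, with up to 3 called genes of smallest p per pathway list (1 where 0 were called) and the most abundant marker per cell type. The genes and lists were chosen with earlier results of these data known. Of 199 list symbols 2 (Trdc and Trac) were not matched, and Adgre1 was matched as Emr1. Alternatives, 14 in all, included DESeq2 1.42.0, other scalings and filters, a replicate block, Xist as covariate and leaving out each library.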

Additional observations from a re-analysis of the deposited data

How the results depend on the processing

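Of 139 values of the 10 genes under the alternatives, 123 kept their direction and their side of the threshold, 11 lost the call, 3 gained it and 2 turned in sign. Those were Nfkb2 at -0.14 and Relb at -0.11 with library size alone, which moved the median of all genes to -0.25; the sign of Pecam1, an endothelial marker, turned to 0.94 without control 3 (from -1.67 to 0.94 over the fits without 1 library) and to 0.66 with Xist as covariate. Without 1 library each, 2 to 5 of the 10 genes were higher (4 with all libraries) and 0 to 0 lower, 785 to 4059 of all genes were called (2993 with all), 306 to 1997 higher and 479 to 2062 lower, and in the pathway lists 9 to 30 genes were called (21 with all), 6 to 26 higher and 3 to 4 lower. With library size alone 544 of all genes were higher, 2831 lower and 8 pathway genes lower; with at least 5 CPM in 3 libraries 2 pathway genes were lower. With Xist as covariate 1696 of all genes were called, 680 higher and 1016 lower, with 11 pathway genes called, 7 of them higher. Same-number correlations of deviations were 0.212, -0.259 and 0.0107. With 3 libraries per group they cannot decide whether replicate numbers pair the samples. The replicate block called 3 of the 10 genes, losing Nfkb1 (edgeR adjusted p = 0.0620). It called 2876 of all genes and 17 pathway genes. DESeq2 called 6 of the 10, 3978 of all genes and 28 pathway genes. The cause of these shifts was not tested. Tnf rests on 18 to 52 reads a library.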

Other observations

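Of the Langerhans cell markers 0 of 6 tested genes were called by edgeR or DESeq2 (1 at an unadjusted p under 0.05), and their sum was 262 to 308 CPM in blister and 272 to 337 CPM in control libraries. Epcam alone gave most of these sums, averaging 189 CPM in blister and 212 CPM in controls, so the sums say little about the other markers of the list. Of the mast cell markers 1 of 4 tested fell, with sums of 13.7 to 31.3 CPM in blister and 40.5 to 220 CPM in controls. Of the suprabasal keratinocyte markers 2 of 6 rose and 1 fell, with overlapping sums of 51815 to 145699 CPM in blister and 46224 to 74220 CPM in controls. The basal keratinocyte markers did not rise together. Of these, 3 of 6 rose and 0 fell in edgeR (3 and 1 in DESeq2), with a median log2 fold change of 0.42. In 1 of them every blister library was below every control.

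Among the most abundant markers of these and the other cell types, Krt14, a basal keratin gene, rose to 28611 ± 6505 CPM in blister, against 7730 ± 265 CPM in controls (SD, n = 3 each; edgeR adjusted p = 0.00450). Kit, a mast cell and melanocyte receptor gene, fell to 20.4 ± 9.15 CPM in blister, against 49.8 ± 12.1 CPM in controls (SD, n = 3 each; edgeR adjusted p = 0.0318), and Krt71, a hair follicle keratin gene, fell to 99.5 ± 131 CPM in blister, against 1014 ± 413 CPM in controls (SD, n = 3 each; edgeR adjusted p = 0.0470). The call of Kit was lost without blister 1, blister 2, control 1 or control 3 (edgeR adjusted p of up to 0.0982) and with Xist as covariate (0.0523), and that of Krt71 without blister 1, blister 2 or any 1 of the controls (up to 0.129), with Xist as covariate (0.0640) and in robust edgeR (0.0692). Without blister 3 the blister mean of Krt71 was 23.8 CPM. Of the hair follicle markers as a list, 7 of 8 tested fell and 0 rose in edgeR (8 and 0 in DESeq2). All 8 had every blister library below every control. Csf1r, Epcam, Thy1, Col3a1, Pecam1 and Krt1 did not pass the threshold. Col3a1, a dermal collagen gene, averaged 143 ± 154 CPM in blister and 1293 ± 1554 CPM in controls (SD, n = 3 each; edgeR adjusted p = 0.0726); its mean was 54.6 CPM in blister without blister 2 and 396 CPM in controls without control 3.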
